A study of Mus musculus with 4 samples.

Results

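The genes examined were Nfe2l2, which encodes the transcription factor Nrf2, and the genes whose products restrain it, resemble it or share its binding sites: Nfe2l1, Nfe2l3, Keap1, Cul3, Bach1, Bach2, Mafg, Mafk and Maff. Probes were assigned through the RefSeq accession printed for each probe, and 9 of these 10 genes were matched, by 11 of 41170 probes, among 32300 genes or transcripts in all. Nfe2l2 and Nfe2l3 had 2 probes each and the other 7 had 1 each. Bach2, a repressor best known from lymphocytes, was matched by no probe and was not analysed here. Of the 9 genes, 8 were well above background on all 4 arrays, and Nfe2l2 was so only on the 2 Nrf2+/+ arrays.

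RNA came from female ICR mice aged 6 months that had received urethane (ethyl carbamate, a carcinogen that produces lung adenomas) at 1 g/kg, 16 weeks before the tissue was taken. All 4 groups had been treated, so no untreated lung was part of the comparison. The groups were lung tumors of Nrf2-/- mice, lung tumors of Nrf2+/+ mice, non-tumor lung of Nrf2-/- mice and non-tumor lung of Nrf2+/+ mice, with tumors between 1.0 and 1.5 mm across. Each group was 1 pool of RNA from 8 mice on 1 one-colour Agilent array, so no spread between animals was measured. The labels describe the Nrf2 allele only as Nrf2-/- and do not say which part of the gene was removed.

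Nrf2 is a bZIP transcription factor of the cap'n'collar family that turns on genes for detoxification and antioxidant defence. In unstressed cells the adaptor Keap1 holds Nrf2 against the ubiquitin ligase scaffold Cul3, and Nrf2 is degraded. Electrophiles modify Keap1, Nrf2 accumulates in the nucleus, pairs with a small Maf protein (MafF, MafG or MafK) and binds antioxidant response elements, sites that Bach1 with a small Maf can occupy as a repressor. Regulation of this system is largely at the level of protein, which arrays do not measure.

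The antioxidant response element core, TGACNNNGC, was searched on both strands in the 250 bases before the RefSeq start of each gene (build GRCm38.p6), because it is the site that Nrf2, the small Maf proteins and Bach1 bind. All 10 genes had at least 1 promoter entry, 16 in all, and the core was found before 1 start each of 4 genes, Nfe2l2, Mafk, Mafg and Maff. Among all 32851 promoter entries 10.2% held it. Only this motif was searched, and a match describes letters and is not a binding site. The Nfe2l2 sequence lies at chr2:75704664-75704913 on the minus strand, with the core starting 240 bases before the start. The Mafk sequence lies at chr5:139791286-139791535 on the plus strand (core 13 bases before the start). That of Mafg lies at chr11:120633548-120633797 on the minus strand (222 bases before). That of Maff lies at chr15:79346371-79346620 on the plus strand (112 bases before) and is the first of 3 Maff entries. In Mafk and Mafg the core is on the opposite strand, so its reverse complement is the part in capitals. The 4 sequences are given 5′ to 3′ on the gene's strand, with the core in capitals.
Nfe2l2: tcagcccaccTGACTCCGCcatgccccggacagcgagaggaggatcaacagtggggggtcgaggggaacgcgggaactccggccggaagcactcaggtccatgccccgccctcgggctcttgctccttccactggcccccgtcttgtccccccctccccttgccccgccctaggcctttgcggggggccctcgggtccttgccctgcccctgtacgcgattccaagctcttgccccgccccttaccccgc
Mafk: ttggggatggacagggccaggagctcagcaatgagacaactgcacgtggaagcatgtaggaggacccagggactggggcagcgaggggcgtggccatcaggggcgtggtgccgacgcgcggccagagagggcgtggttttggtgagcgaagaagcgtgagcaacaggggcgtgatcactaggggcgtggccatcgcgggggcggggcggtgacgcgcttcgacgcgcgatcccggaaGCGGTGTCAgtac
Mafg: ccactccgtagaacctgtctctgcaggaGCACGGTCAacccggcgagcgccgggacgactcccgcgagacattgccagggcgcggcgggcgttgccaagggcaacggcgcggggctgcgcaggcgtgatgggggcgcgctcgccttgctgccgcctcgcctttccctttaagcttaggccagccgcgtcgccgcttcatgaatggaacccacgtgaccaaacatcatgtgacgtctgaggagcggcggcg
Maff: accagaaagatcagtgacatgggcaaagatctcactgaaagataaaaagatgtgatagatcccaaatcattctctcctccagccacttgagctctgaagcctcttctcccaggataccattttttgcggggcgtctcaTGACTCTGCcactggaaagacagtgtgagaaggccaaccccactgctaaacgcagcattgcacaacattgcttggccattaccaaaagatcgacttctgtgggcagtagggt

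Levels below are relative signals: the processed signal of the probe divided by the 75th percentile of its own array, which was 584 intensity units for Nrf2-/- and 555 for Nrf2+/+ tumors, 742 for Nrf2-/- and 760 for Nrf2+/+ non-tumor lung. Relative signals of different probes are not comparable. Between 54.2% and 63.5% of spots were well above background, and no non-control spot was saturated. Nrf2+/+ non-tumor lung had been hybridised on slide 1, and the remaining 3 pools on slide 2. The genotype comparison in tumors and the tumor comparison in Nrf2-/- mice were therefore within a slide, whereas both comparisons with the Nrf2+/+ non-tumor array crossed slides. The alveolar type 2 marker Sftpc was bright on every array (processed signals of 266300 and 263600 in Nrf2-/- and Nrf2+/+ tumor, against 276600 and 251600 in the corresponding non-tumor lung). Differences are on the log2 scale between 2 arrays and carry no test. For bright probes the scanner software's error model gave an error of 0.20 for such a difference, which covers measurement only. A difference of 1 in either direction, 2-fold, was used as the mark for counting.

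Nfe2l2 itself was detected only where the gene was intact. Its relative signal was 13.5 in Nrf2+/+ tumor and 10.4 in Nrf2+/+ non-tumor lung, a difference of 0.37 that exceeded the software error of 0.20 but not the 2-fold mark, and was within the error with spike-in scaling (0.17). In Nrf2-/- mice the probe was not well above background in tumor (processed signal 6.94, against 7478 in Nrf2+/+ tumor) or in non-tumor lung (5.13, against 7913 in Nrf2+/+ non-tumor lung). Set against the dimmest signal still well above background on the same array, Nfe2l2 was lower by at least 268-fold in tumors and by at least 376-fold in non-tumor lung of Nrf2-/- mice. These bounds are nominal, because some brighter signals were not well above background. In Nrf2-/- tumor the dimmest signal was 29.4, and Nqo1 at 34.7 was not well above background. In Nrf2-/- non-tumor lung the dimmest was 20.6, and Blk at 24.3 was not. With normexp correction, whose offset raises dim signals, the Nfe2l2 differences were -6.81 in tumor and -6.71 in non-tumor lung, smaller than these bounds. The second probe behaved likewise, with processed signals of 6.5 in Nrf2-/- tumor and 6.07 in Nrf2-/- non-tumor lung, against 6157 and 6147 in the Nrf2+/+ tissues. On that probe Nrf2+/+ tumor stood 0.46 above Nrf2+/+ non-tumor lung. Where either probe lies relative to the removed part of the gene is not given in the sources used here, so the signals check the labels but do not describe the allele.

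Both relatives of Nrf2 were measured in all groups. Nfe2l1 encodes Nrf1, a cap'n'collar factor anchored in the endoplasmic reticulum that drives proteasome genes when released. Its relative signal was 14.2 in Nrf2-/- tumor and 12.5 in Nrf2+/+ tumor, against 13.6 in Nrf2-/- and 11.8 in Nrf2+/+ non-tumor lung. The 4 arrays lay within 1.21-fold of each other. Nrf2-/- stood above Nrf2+/+ by 0.19 in tumor and by 0.21 in non-tumor lung, values close to the software error. Nfe2l1 differed by 0.06 between tumor and non-tumor lung in Nrf2-/- mice and by 0.08 in Nrf2+/+ mice, and the sign of both differences turned under other scalings.

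Nfe2l3 encodes Nrf3, a less studied member of the family, and was dim. The brighter of its 2 probes had relative signals of 0.131 in Nrf2-/- tumor and 0.103 in Nrf2+/+ tumor, against 0.114 in Nrf2-/- and 0.139 in Nrf2+/+ non-tumor lung. Nrf2-/- was higher than Nrf2+/+ by 0.35 in tumor and lower by -0.29 in non-tumor lung. The other probe was not well above background in either tumor pool (processed signals 9.08 in Nrf2-/- and 5.56 in Nrf2+/+), against 36.0 in Nrf2-/- and 28.8 in Nrf2+/+ non-tumor lung. It placed Nrf2-/- above Nrf2+/+ non-tumor lung by 0.36. The 2 probes thus gave opposite signs for the genotype difference in non-tumor lung, and no direction is drawn for Nfe2l3.

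The negative regulators of Nrf2 protein were well above background in all 4 groups. Keap1 had relative signals of 8.91 in Nrf2-/- tumor and 9.79 in Nrf2+/+ tumor, against 8.38 in Nrf2-/- and 7.95 in Nrf2+/+ non-tumor lung. Its largest difference, 0.30 between Nrf2+/+ tumor and Nrf2+/+ non-tumor lung, crossed slides, and the within-slide values were 0.09 for Nrf2-/- tumor against non-tumor lung and -0.13 for Nrf2-/- against Nrf2+/+ tumor. Cul3, the scaffold of the ligase that Keap1 recruits, had relative signals of 0.960 in Nrf2-/- tumor and 1.21 in Nrf2+/+ tumor, against 0.985 in Nrf2-/- and 1.28 in Nrf2+/+ non-tumor lung. Both Nrf2-/- pools lay below both Nrf2+/+ pools. Cul3 was lower in Nrf2-/- mice by -0.34 in tumor, where the comparison lay within a slide, and by -0.38 in non-tumor lung, each beyond the software error of 0.20 and short of 2-fold. Of all genes measured in tumor 68.2% differed less between the genotypes, and in non-tumor lung 71.6% did. Between tumor and non-tumor lung Cul3 differed by -0.04 in Nrf2-/- and by -0.08 in Nrf2+/+ mice.

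**Figure D1:**
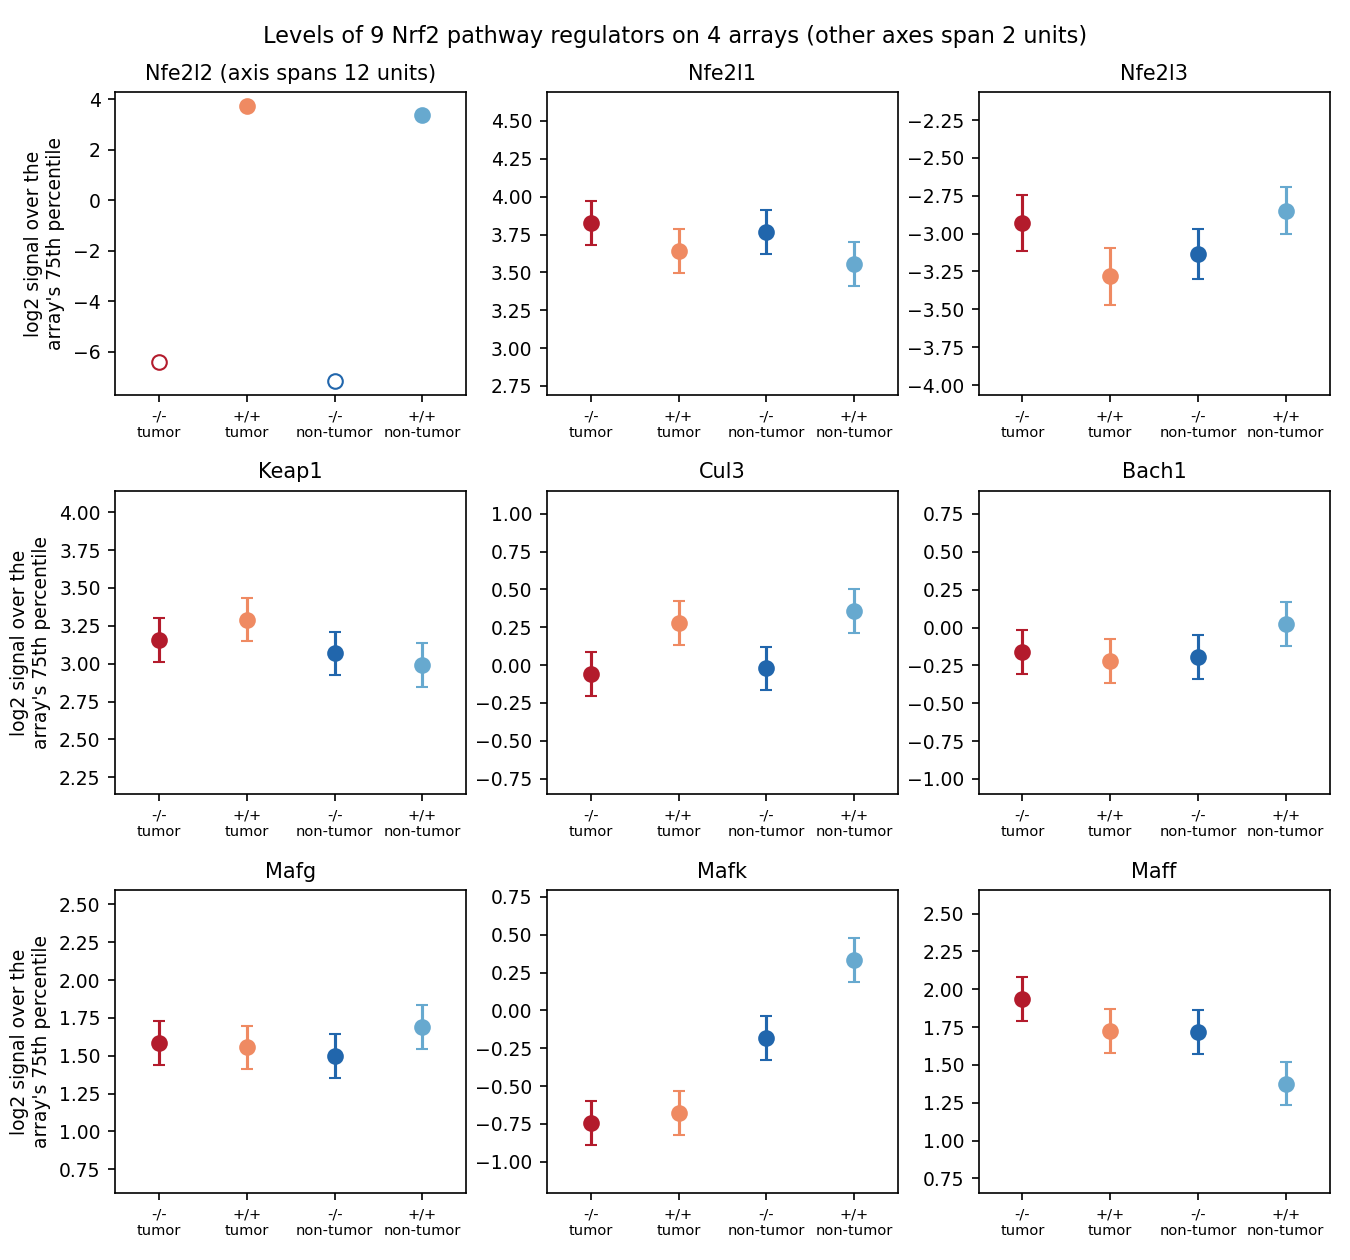
Log2 of the relative signal (vertical axes) of 9 genes on 4 arrays, 1 per pool of 8 mice: tumors (Nrf2-/-, then Nrf2+/+) and non-tumor lung (Nrf2-/-, then Nrf2+/+), from left to right. Bars are the scanner software's error of the spot, and open circles, drawn without bars, are not well above background. Nfe2l2 is at background in both Nrf2-/- pools, Mafk is lower in both tumor pools and Cul3 is lower in both Nrf2-/- pools.

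Bach1 encodes a heme-sensitive repressor that competes with Nrf2 for its sites. Its relative signal was 0.893 in Nrf2-/- tumor and 0.859 in Nrf2+/+ tumor, against 0.873 in Nrf2-/- and 1.02 in Nrf2+/+ non-tumor lung. The pool on slide 1 was the highest, and the 3 pools on the shared slide lay between 0.859 and 0.893. The difference between genotypes was 0.06 in tumor and -0.22 in non-tumor lung.

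The 3 small Maf genes, whose products lack an activation domain and serve as DNA-binding partners of both Nrf2 and Bach1, did not share a pattern. Mafg had relative signals of 3.00 in Nrf2-/- tumor and 2.94 in Nrf2+/+ tumor, against 2.83 in Nrf2-/- and 3.23 in Nrf2+/+ non-tumor lung. It had the narrowest range over the arrays of the 9 genes, 0.19. Its differences between genotypes were 0.03 in tumor and -0.19 in non-tumor lung. Maff had relative signals of 3.82 in Nrf2-/- tumor and 3.31 in Nrf2+/+ tumor, against 3.29 in Nrf2-/- and 2.60 in Nrf2+/+ non-tumor lung. Nrf2-/- stood above Nrf2+/+ by 0.21 in tumor, just over the software error, and by 0.34 in non-tumor lung. Tumor stood above non-tumor lung by 0.21 in Nrf2-/- mice, a sign that turned with spike-in scaling (-0.06), and by 0.35 in Nrf2+/+ mice.

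Mafk was the most variable of the 8 genes measured on all arrays. Its relative signal was 0.597 in Nrf2-/- tumor and 0.625 in Nrf2+/+ tumor, against 0.881 in Nrf2-/- and 1.26 in Nrf2+/+ non-tumor lung. Both tumor pools lay below both non-tumor pools. Mafk was lower in tumor by -1.01 in Nrf2+/+ mice (error 0.21), which is 2.02-fold, and by -0.56 in Nrf2-/- mice (error 0.21), the value from within a slide. Between genotypes it differed by -0.07 in tumor and by -0.52 in non-tumor lung. Of all genes measured in Nrf2+/+ mice 81.3% differed less between tumor and non-tumor lung, and in Nrf2-/- mice 74.0% did. The -1.01 in Nrf2+/+ mice, which crossed slides, was short of 2-fold with median scaling (-0.72), with normexp background correction (-0.92) and with quantile normalization (-0.996), while the direction held in each.

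Endothelial and ciliated cell markers were lower in tumor, as Mafk was, and alveolar type 2 markers were higher. Other lists also had medians below 0 in Nrf2-/- and Nrf2+/+ tumor. These were cardiac markers (-2.41 and -2.50), platelet and megakaryocyte markers (-1.79 and -2.09) and alveolar type 1 markers (-0.53 and -1.16). Club cell (-1.24 and -0.53), fibroblast (-0.52 and -0.31), B cell (-0.24 and -1.20) and T cell markers (-0.16 and -0.48) were also among them. Myeloid markers had medians of 0.12 and -0.63. The levels of the 6 endothelial markers (Pecam1, Cdh5, Kdr, Tek, Tie1 and Cldn5), summed as relative signals, were 58.5 in Nrf2-/- tumor and 47.9 in Nrf2+/+ tumor, against 119 in Nrf2-/- and 145 in Nrf2+/+ non-tumor lung. All 6 were well above background on every array, and 5 of 6 were at least 2-fold lower in Nrf2-/- tumor and 6 of 6 in Nrf2+/+ tumor than in the corresponding non-tumor lung. Across all genes 5.82% were at least 2-fold lower in Nrf2-/- tumor and 11.2% in Nrf2+/+ tumor. Summed levels of the 6 ciliated cell markers were 1.39 in Nrf2-/- tumor and 3.14 in Nrf2+/+ tumor, against 11.3 in Nrf2-/- and 14.0 in Nrf2+/+ non-tumor lung, and those of the 7 alveolar type 2 markers were 1087 and 1034 in the tumors, against 698 and 613 in non-tumor lung. Because probes differ in brightness, each sum follows mainly its brightest markers, such as Cldn5 among the endothelial ones. The sums do not measure the amount of a cell type. In RNA from whole tissue, fewer cells of a type and less RNA per cell cannot be told apart. The part of these cell types in the Mafk difference was not tested.

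**Figure D2:**
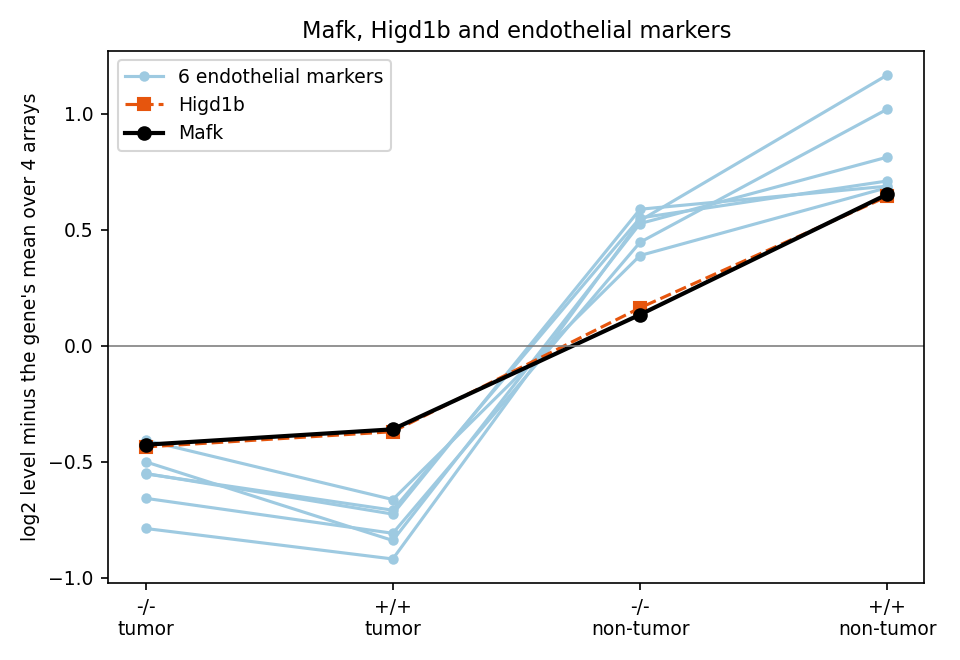
Log2 level of each gene minus its own mean over the 4 arrays (vertical axis) for Mafk, for Higd1b and for 6 endothelial markers, on the arrays of tumors (Nrf2-/-, then Nrf2+/+) and non-tumor lung (Nrf2-/-, then Nrf2+/+), from left to right. Lines join the points of a gene, and all 8 genes are lower in both tumor pools than in both non-tumor pools. Higd1b was drawn because its pattern over these arrays was the nearest to that of Mafk, so their likeness follows from the choice. Markers of other cell types that were lower in tumor are not drawn.

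The regulators were also counted at the 2-fold mark in each comparison. In Nrf2-/- tumor against Nrf2-/- non-tumor lung none of the 8 genes measured passed it, where 11.2% of all 19441 genes measured did. In Nrf2+/+ tumor against Nrf2+/+ non-tumor lung 1 of 9 did, Mafk, where 19.1% of 19919 genes did. In Nrf2-/- against Nrf2+/+ tumor 1 of 9 did, Nfe2l2, where 6.3% of 17836 genes did, and in Nrf2-/- against Nrf2+/+ non-tumor lung the same single gene did, where 5.86% of 20196 genes did. Counts of 1 gene or none in a list of this length are near those shares and are not a result about the list. Between genotypes the gene counted was the disrupted one itself. The median absolute difference of the regulators was 0.09 for tumor against non-tumor lung in Nrf2-/- mice and 0.30 in Nrf2+/+ mice, where all genes had 0.32 and 0.47. For the genotype difference it was 0.19 in tumor and 0.29 in non-tumor lung, where all genes had 0.21 and 0.22. Over the 4 arrays, 7 of the 8 genes measured on all of them stayed within a 2-fold range, with a median range of 0.36 log2 units, and 74.2% of all such genes stayed within 2-fold, with a median range of 0.59. The first pair of comparisons shares no array, and neither does the second, but each tumor comparison shares an array with each genotype comparison.

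**Figure D3:**
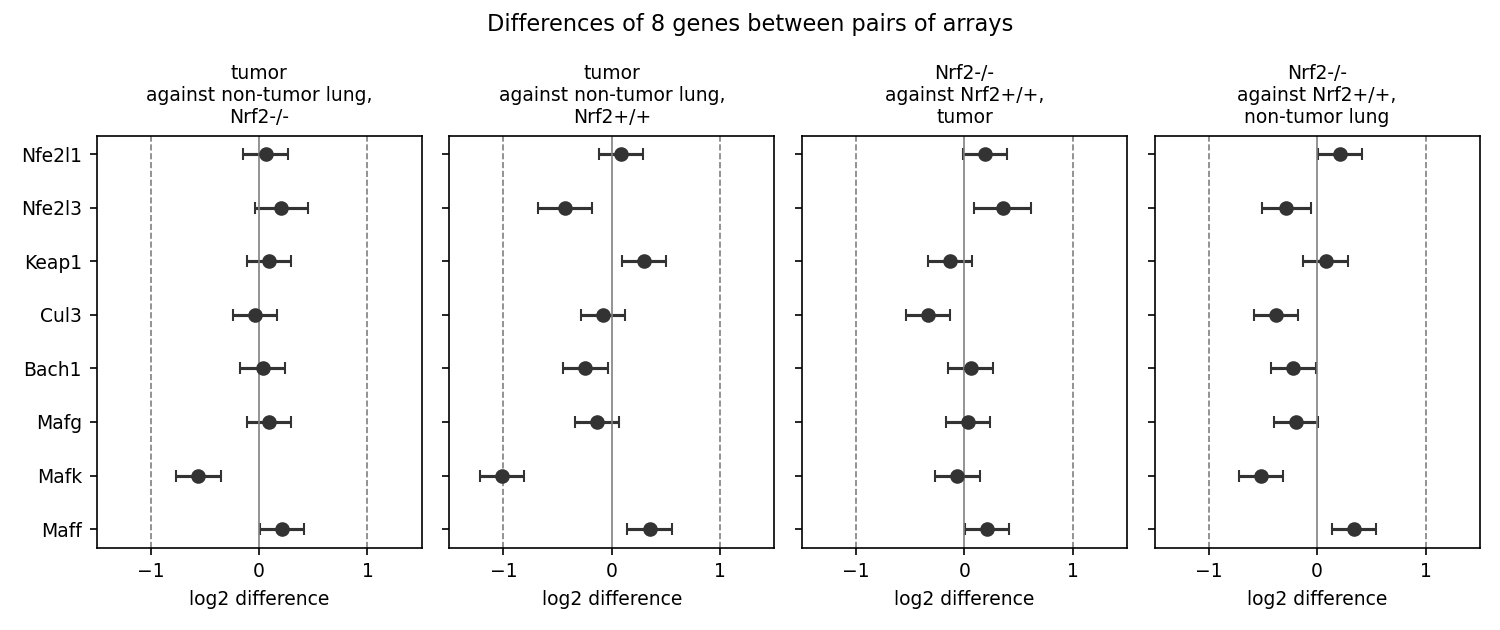
Log2 differences (horizontal axes) of 8 genes between pairs of arrays, with the scanner software's error as bars and dashed lines at 2-fold. Nfe2l2 is left out because it was at background in Nrf2-/- mice. The Mafk difference in Nrf2+/+ mice, at -1.01, alone reaches a dashed line.

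Whether the tumor difference itself differed by genotype could be described but not tested. The difference of differences, Nrf2-/- minus Nrf2+/+, was 0.64 for the brighter Nfe2l3 probe, 0.45 for Mafk, 0.28 for Bach1 and 0.23 for Mafg. It was -0.21 for Keap1, -0.13 for Maff, 0.05 for Cul3 and -0.02 for Nfe2l1. None of the 8 passed 2-fold, as did 4.34% of the 16296 genes measured on all 4 arrays, whose median absolute value was 0.25.

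One model left a residual to test against: an additive fit of tissue and genotype over the 4 arrays with limma. It had 1 residual degree of freedom, and p-values were adjusted over 20564 genes by the Benjamini-Hochberg method. No gene passed an adjusted p of 0.05 for the tissue term (0%) or the genotype term (0%), Nfe2l2 included, although limma gave 6098 and 1911 genes an unadjusted p below 0.05. For Nfe2l2 the genotype coefficient of limma was -10.35 ± 0.19 (SE), with an unadjusted p of 8.13e-06 and an adjusted p of 0.167, and it rests on Nrf2-/- signals at background. For Mafk the tissue coefficient was -0.79 ± 0.20 (SE), lower in tumor in both genotypes, with a limma adjusted p of 0.125. Limma adjusted p-values of the tissue term for the other 7 genes besides Nfe2l2 lay between 0.318 and 0.931, and those of the genotype term for all but Nfe2l2 between 0.612 (Cul3) and 0.978. These values do not show that levels were equal, since the same fit did not call the disrupted gene. Across alternative settings the adjusted p ranged from 3.82e-05 to 0.139 for the Nfe2l2 genotype term and from 0.0265 to 0.166 for the Mafk tissue term.

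The wider machinery around Nrf2 was described from lists. Of 20 genes whose products act on Nrf2, Keap1, Nrf1 or Bach1 protein, 18 were measured. They include the Keap1 competitor Sqstm1 (p62), the ligase subunit Rbx1 and the cullin regulators Nedd8, Cand1 and Cops5. None was past 2-fold between genotypes in tumor or in non-tumor lung, where 6.3% and 5.86% of all genes were, or between tumor and non-tumor lung in Nrf2-/- mice, where 11.2% were. Counts of 0 of 18 are near those genotype shares and are not a result about the list. In Nrf2+/+ mice 1 of 18 was at least 2-fold higher in tumor, where 7.83% of all genes were: Sel1l, an adaptor of the endoplasmic reticulum degradation ligase, at 1.03. That comparison crossed slides, and Sel1l was short of 2-fold with normexp correction, spike-in scaling or the mean of all probes (lowest value 0.72). Sqstm1 differed by 0.08 in tumor and by 0.12 in non-tumor lung between Nrf2-/- and Nrf2+/+ mice. The median difference of the list between genotypes was -0.10 in tumor and 0.03 in non-tumor lung.

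Among 17 coactivators and other bZIP or Maf genes, none of the 14 measured in tumor and none of the 15 measured in non-tumor lung was past 2-fold between genotypes, where 6.3% and 5.86% of all genes were, under 1 gene in a list of this length. Between tumor and non-tumor lung Junb, a partner of Fos in AP-1, was at least 2-fold higher in tumor in both genotypes, at 1.15 in Nrf2-/- and 1.08 in Nrf2+/+ mice, where 5.41% and 7.83% of all genes were. It was short of 2-fold under 3 of 5 alternatives in Nrf2-/- mice (lowest 0.87) and under 4 of 5 in Nrf2+/+ mice (lowest 0.78). Nfe2, the cap'n'collar factor of megakaryocytes and red cell precursors, was lower in Nrf2+/+ tumor at -1.33, a comparison that crossed slides. There 11.2% of all genes were at least 2-fold lower, and 5.82% were in Nrf2-/- tumor. Within a slide Nfe2 was lower in Nrf2-/- tumor by -0.76. Between genotypes it stood at -0.29 in tumor and at -0.86 in non-tumor lung. Beside Nfe2, 4 of 5 platelet and megakaryocyte markers were at least 2-fold lower in tumor in each genotype and Pf4 was higher, at 2.52 in Nrf2-/- and 2.78 in Nrf2+/+ mice. Their part in the Nfe2 difference was not tested.

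Among known target genes of Nrf2, those past 2-fold between genotypes were lower in Nrf2-/- mice in both tissues, and 24 of 32 lay within 2-fold in each tissue. The list was chosen with earlier results of these data known, so its counts and medians are a description and not a test. Of 32 target genes measured in tumor, 8 were at least 2-fold lower in Nrf2-/- mice and none higher, where 2.57% of all genes were lower and 3.73% higher. The glutathione peroxidase Gpx2 stood at -2.93, the glutathione transferase Gstm3 at -1.49 and Gsta3 at -1.41, and Gsta1 was at least 3.92-fold lower. In non-tumor lung 8 of the 32 measured stood at least 2-fold below Nrf2+/+ and none as far above, where 3.48% of all genes were lower and 2.38% higher. The carboxylesterase Ces1g was at least 10.4-fold lower, and Gpx2 stood at -2.08, the quinone reductase Nqo1 at -1.62 and the aldehyde oxidase Aox1 at -1.61. The median difference over the targets measured was -0.31 in tumor and -0.33 in non-tumor lung, where all genes had -0.03 and 0.02, and 8 targets in tumor and 9 in non-tumor lung were above 0. The same 6 genes were past the mark in both tissues: Gpx2, Gsta3, Gstm3, Me1, Aox1 and Ces1g. The glutathione transferase Gstm1 stood at -1.34 in tumor and at -0.99 in non-tumor lung, and the glutathione reductase Gsr, past the mark in non-tumor lung, at -1.03 there. Of those 6, Ces1g was short of the mark in tumor with normexp correction or the mean of all probes, and Gsta3 in non-tumor lung with median scaling (-0.96). Gsr was short of it under 3 of 5 alternatives. Glutathione transferases of 1 class are close in sequence, and how far their probes cross-hybridise was not tested.

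Markers of other cell types also differed between the genotypes. In tumor 5 of 5 ciliated cell markers measured were at least 2-fold lower in Nrf2-/- mice (median -1.26), as were 1 of 3 club cell markers, Cyp2f2 at -1.36 (median -0.91, all 3 below 0), and 4 of 5 platelet and megakaryocyte markers (median -1.21). Of all genes 2.57% were at least 2-fold lower in that comparison. Of the T cell markers 7 of 7 were above 0 in tumor (median 0.86), as were 7 of 8 myeloid markers (median 0.50) and 8263 of all 17836 genes. Summed levels of the club cell markers were 328 in Nrf2-/- and 629 in Nrf2+/+ tumor, against 676 in Nrf2-/- and 788 in Nrf2+/+ non-tumor lung. That sum follows mainly the brightest probes, those of Cbr2 and Scgb1a1. In non-tumor lung none of 6 ciliated and none of 3 club cell markers passed 2-fold (medians -0.28 and -0.23), and 4 of 5 platelet and megakaryocyte markers were at least 2-fold lower in Nrf2-/- mice (median -1.64). Of all genes there 5.86% were past 2-fold and 3.48% at least 2-fold lower. In non-tumor lung 7 of 8 T cell markers (median 0.49) and 3 of 8 myeloid markers (median -0.17) were above 0, as were 10525 of 20196 genes. The part of these cell types in the target gene differences was not tested.

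**Figure D4:**
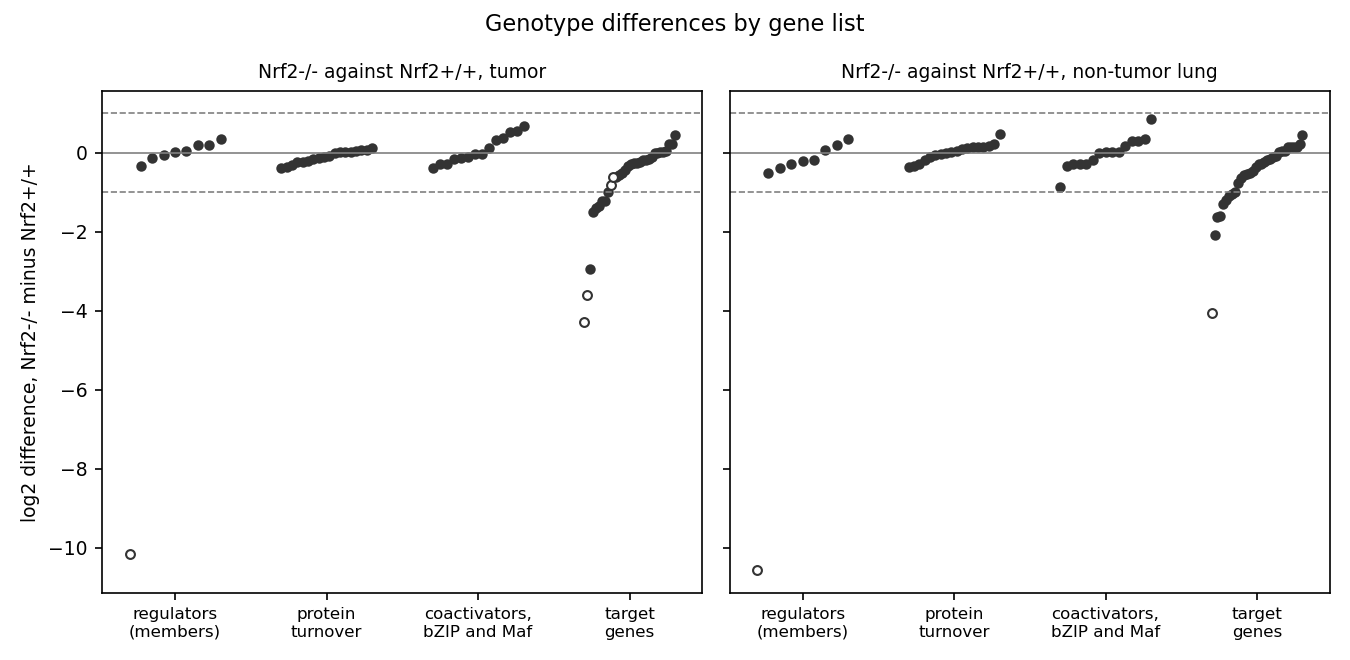
Log2 difference of each gene, Nrf2-/- minus Nrf2+/+ (vertical axis), in tumor on the left and in non-tumor lung on the right, for the regulators, genes of protein turnover, coactivators with other bZIP and Maf genes, and target genes. Open circles are measured values where 1 of the 2 pools was not well above background, and dashed lines mark 2-fold. The lowest open circle in each panel is Nfe2l2, and past the lower line the other points, 8 in tumor and 8 in non-tumor lung, are target genes.

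Between tumor and non-tumor lung the target genes moved in both directions. In Nrf2-/- mice 6 of 32 were at least 2-fold higher in tumor and 2 lower, where 5.41% of all genes were higher and 5.82% lower. In Nrf2+/+ mice 7 of 33 were higher and 3 lower, where 7.83% of all genes were higher and 11.2% lower. With spike-in scaling 6 were higher and 6 lower in Nrf2-/- tumor, and 4 and 4 in Nrf2+/+ tumor. In Nrf2+/+ tumor 10 were higher and 1 lower with median scaling, and 5 higher and none lower with normexp correction. Malic enzyme (Me1) stood at 2.42 in Nrf2-/- and at 2.34 in Nrf2+/+ mice, Osgin1 at 1.81 and 1.53, and the heme oxygenase Hmox1, a gene that Bach1 represses, at 1.50 and 1.41. The cystine transporter Slc7a11 was at least 3.34-fold higher in Nrf2-/- and at least 3.21-fold higher in Nrf2+/+ tumor, and just under 2-fold with normexp correction (0.96 and 0.97). Among the lower genes were Gsta1 in Nrf2-/- tumor (at least 4.26-fold) and Nqo1 in Nrf2+/+ tumor (-1.64, or -0.99 with normexp correction). Me1, Osgin1, Hmox1 and Slc7a11 passed the mark upward in both genotypes. Gclc and Aox1 did so only in Nrf2-/- tumor, and Gsta4, Pgd and Prdx1 only in Nrf2+/+ tumor. The part of Nrf2 in these tumor differences was not tested.

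Genes whose pattern over the 4 arrays was nearest to that of Nfe2l2 were found by the root mean square distance between log2 levels, each centred on the gene's own mean. The Nfe2l2 signal was not well above background in either Nrf2-/- pool, nor were those of Raet1e and Ces1f, so the distances and their order rest in part on background signal. The 5 nearest were Cdh1, which encodes E-cadherin (2.42 log2 units), Raet1e, a ligand of the natural killer receptor NKG2D (2.48), the carboxylesterase Ces1f (2.92), Rmnd1, a mitochondrial protein (2.96), and Firre, a long noncoding RNA (3.09). Cdh1 had processed signals of 32.3 in Nrf2-/- tumor and 1981 in Nrf2+/+ tumor, against 33.3 in Nrf2-/- and 1089 in Nrf2+/+ non-tumor lung. Cdh1, Raet1e, Ces1f and Firre had 1 probe each, so their values rest on that probe. The brighter Rmnd1 probe had 45.3 in Nrf2-/- and 1010 in Nrf2+/+ tumor, against 57.1 and 1204 in non-tumor lung. Rmnd1 had a second probe, with 38.9 in Nrf2-/- tumor and 273 in Nrf2+/+ tumor, against 54.9 in Nrf2-/- and 400 in Nrf2+/+ non-tumor lung. All 5 were low in both Nrf2-/- pools, and none differed as much between genotypes as Nfe2l2. With 4 arrays, of which the Nrf2-/- pair sets the pattern, these distances are a description.

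**Figure D5:**
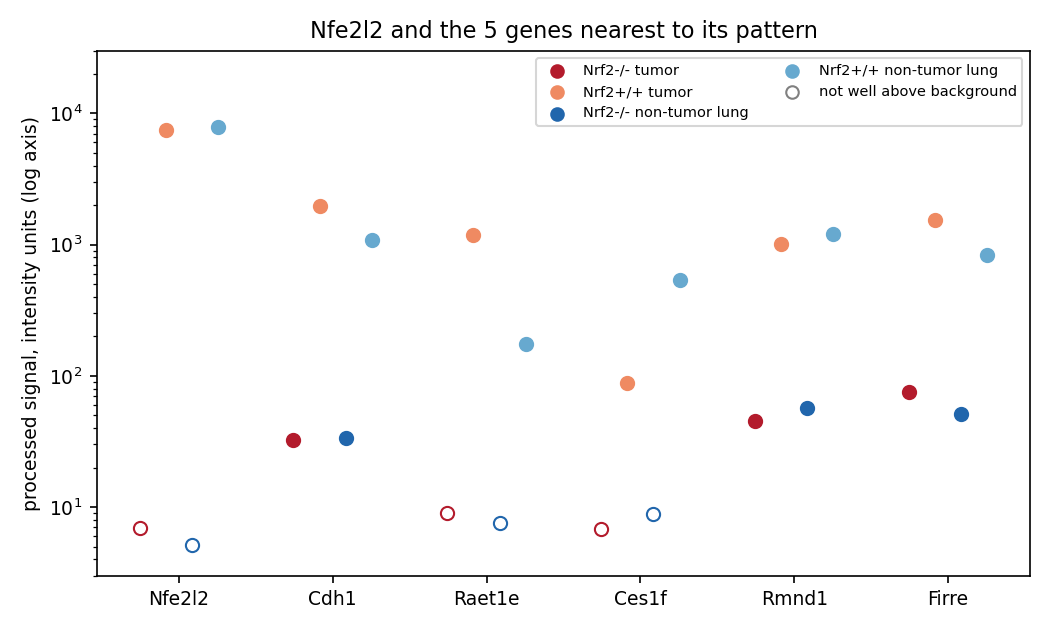
Processed signal in intensity units (vertical log axis) of Nfe2l2 and of the 5 genes nearest to its pattern in tumors (Nrf2-/-, then Nrf2+/+) and non-tumor lung (Nrf2-/-, then Nrf2+/+), from left to right for each gene. Open circles are not well above background. For each gene both Nrf2-/- pools lie below both Nrf2+/+ pools.

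Distances depend on the width of a gene's range over the arrays, which was 1.08 log2 units for Mafk and 10.9 for Nfe2l2. Distances to Mafk and to Nfe2l2 are therefore not comparable. The genes nearest to Mafk were found in the same way. They were Higd1b, a gene expressed in lung pericytes (0.02 log2 units), Zc4h2, a zinc finger gene that was not well above background in tumor (0.03), and the histone gene H2bc12 (0.03). Higd1b had processed signals of 1145 in Nrf2-/- tumor and 1139 in Nrf2+/+ tumor, against 2204 in Nrf2-/- and 3148 in Nrf2+/+ non-tumor lung. H2bc12 had a second probe, with 1169 in Nrf2-/- tumor and 705 in Nrf2+/+ tumor, against 1997 in Nrf2-/- and 2078 in Nrf2+/+ non-tumor lung. With 4 arrays these distances too are a description, and nothing is drawn from them about shared control.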

How the data were processed

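Per the labels' protocols, 500 ng of total RNA from each pool of 8 mice was labelled with Cy3. Deposited were linear intensity values per spot, background-subtracted and detrended by Agilent Feature Extraction 10.7.3.1 per the file headers (design 014868, build mm9). The deposited 0 or 1 flags for background, saturation and uniformity came from the same software, per the file headers. The submitters' value table equalled the processed signal within 0.497%, so it was linear and not centred.

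Log2 processed signal minus each array's 75th percentile was averaged per probe, leaving out 4 probes with non-uniform spots. Probes were named by unversioned RefSeq accession (26695 named, 14479 not). A gene's brightest probe stood for it. Counts took in genes that the software called well above background in either pool. Those dim on one side entered at a nominal lower bound, set by the array's dimmest signal well above background. Each fold given as at least is such a bound. The additive fit used limma 3.58.1 in R 4.3.3 (prior degrees of freedom 2.18). Its coefficient estimates were checked on simulated data whose errors were drawn from the fit's own prior. That check does not show that the fit can call real differences on these arrays. Other steps used Python 3.11.15. The files hold no mean signal, so normexp (offset 50) used median signals. Named were all regulators, up to 4 list genes each way past 2-fold, and the nearest 5 and 3 genes by pattern; other genes were singled out after their values were seen. Regulators and the gene lists were chosen with earlier results of these data known. One listed gene is not reported here.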

Additional observations from a re-analysis of the deposited data

Results flagged for a closer look

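The genotype difference of Nfe2l3 had opposite signs in tumor and in non-tumor lung, each beyond the scanner software's error. It was 0.35 in tumor and -0.29 in non-tumor lung, so the 2 differed by 0.64 on the log2 scale. The difference was not tested, since each group had 1 array, and the other probe of the gene, not well above background in tumor, stood at 0.36 in non-tumor lung, the opposite sign. With the mean of all probes the non-tumor value was 0.04, and with normexp correction both values (0.19 and -0.22) were within the error, so no direction is drawn.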

How the results depend on the processing

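No paired analysis was possible because each group had 1 array and the numbers in the labels run across groups. A slide term would use up the 1 residual degree of freedom, so its values are the within-slide differences given with the results, without a test. Median scaling shifted the all-gene median by up to 0.29 and spike-in scaling (7 probes) by as much as -0.28. With median scaling, 64.1% of the genes past 2-fold in Nrf2+/+ tumor were higher, as were 27.5% with spike-in scaling and 41.1% in the main setting; in Nrf2-/- tumor the shares were 61.7%, 26.0% and 48.1% (58.4% with normexp), and between genotypes in non-tumor lung 54.8% with median scaling and 40.7% in the main setting. In the order of the comparisons counted in the report, the genes past 2-fold numbered 2183, 3797, 1124 and 1183, against 1220, 2260, 546 and 440 with normexp and 3637, 5720, 2182 and 2479 without a filter; over genes on all 4 arrays those between genotypes numbered 744 and 550. Of 36 differences of single regulators, 22 kept their sign under all 5 alternatives that change values, among them all for Mafk, and those for Cul3 and Maff between genotypes. Cul3 ranged from -0.44 to -0.33 in tumor and from -0.41 to -0.24 in non-tumor lung, and Maff from 0.11 to 0.21 and from 0.30 to 0.49. The count of regulators past 2-fold in Nrf2+/+ tumor was 0 with normexp, median scaling or quantile normalization and 2 with the mean of all probes, which added Nfe2l3. With genes on all 4 arrays only, Nfe2l2 is left out by construction and both genotype counts were 0. The additive fit called 2 regulators with normexp or an intensity trend (Nfe2l2 and Mafk), 1 with median scaling, spike-in scaling or no filter (Nfe2l2) and 1 over genes on all 4 arrays (Mafk). All genes called ranged from 0 to 4610 for tissue and from 0 to 238 for genotype. The cause of these changes was not tested. Target genes lower in Nrf2-/- mice numbered 7 to 9 in tumor and 6 to 9 in non-tumor lung, and 101 of 120 recomputed list counts stayed within 1.5 times; these list alternatives, those of single list genes and those of the difference of differences, which stayed at 0, were chosen after seeing the data. Dim genes such as Nfe2l3 are limited by signal over background.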
